A study of Sus scrofa with 6 samples.

Results

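BMP4, a bone morphogenetic protein (BMP), was described together with 3 inhibitors of BMP or activin signalling, NOG, SMAD6 and FST, in cultured marrow stromal cells of the pig. They are 4 of 10881 genes that the array's annotation names. A gene was taken where a probe set carried its symbol and no other, and each of the 4 had 1 such probe set: 15196583 for BMP4 (Entrez gene 100113425), 15208283 for NOG (574073), 15187799 for SMAD6 (100152069) and 15242841 for FST (445002). They were selected on their measured levels at each site, so those levels and the site differences of these 4 genes are given as descriptions without a test.

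Cells grown from mandibular symphysis marrow, from the chin end of the lower jaw, were set against cells grown from tibial marrow, with 3 arrays for each site. All animals were female American Yorkshire pigs aged 4 months, and all cultures were at passage 0. The study's text names 3 pigs as donors of both marrows, and the sample numbers are not stated to mark a pig, so p-values measure only the spread between these arrays. Marrow was plated on plastic without a sort, so other adherent cells could be present, and the cells carried no genetic change or treatment that the labels mention.

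BMPs are secreted ligands that bind type I and type II serine/threonine kinase receptors, which phosphorylate SMAD1, SMAD5 and SMAD9. These SMADs join SMAD4, enter the nucleus and switch on genes such as ID1, MSX1, SMAD6, SMAD7 and NOG. Noggin, the product of NOG, holds BMPs outside the cell, SMAD6 blocks the signal inside it, and follistatin, the product of FST, binds activins and, less tightly, some BMPs. In bone marrow stroma BMPs are known as inducers of osteoblast and cartilage formation, and in the embryonic jaw BMP4 helps to set position.

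Levels are log2 values, so a difference of 1 is a 2-fold change. Array medians lay between 5.63 and 5.71, and precision is limited by the number of arrays. Of 11 measured stromal cell markers 4 had a higher and 7 a lower mandibular mean, and the list mean was 9.65 ± 0.08 in mandibular and 9.93 ± 0.22 in tibial cultures (SD, n = 3 each). Levels were high on all arrays for THY1 (10.61 ± 0.10 in mandibular and 10.63 ± 0.01 in tibial cultures) and COL1A1 (13.36 ± 0.11 in mandibular and 13.42 ± 0.06 in tibial cultures; SD, n = 3 each). The niche chemokine gene CXCL12 was low at both sites (4.27 ± 0.13 in mandibular and 4.67 ± 0.40 in tibial cultures), and the adhesion molecule gene VCAM1 measured 4.51 ± 0.97 in mandibular and 7.06 ± 2.75 in tibial cultures (SD, n = 3 each). Positional genes went against the site label on an array of each site. The mean of 6 HOX genes, which mark trunk and limb identity, was 4.58, 6.71 and 4.59 on the arrays labelled mandibular 1, 2 and 3, against 6.67, 6.80 and 5.06 on those labelled tibial 1, 2 and 3. The mean of 7 jaw patterning genes was 7.01, 5.15 and 6.75 on the mandibular arrays, against 5.12, 4.97 and 6.84 on the tibial arrays. In these means the arrays labelled mandibular 2 and tibial 3 thus carried the positional levels of the opposite site. Among the jaw genes BARX1 went the other way, highest on mandibular 2 (7.45) and lowest on tibial 3 (5.65). ALX4 varied little, from 4.73 to 5.31. Whether the labels of mandibular 2 and tibial 3 were exchanged was not tested. Every site difference and every statement of overlap here follows the labels as deposited and would change if they were. The differences of BMP4, NOG, SMAD6 and FST are also given without both arrays. For some of the other pathway genes named below, the difference without both is given with the gene. These arrays were singled out after the data were seen, and 1 of the 7 jaw genes, MSX1, is also a BMP target described below. A p-value from the fit without both arrays is therefore not that of a planned test, least of all for genes that follow the positional levels.

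BMP4 was higher on every array labelled mandibular than on any labelled tibial. The level was 8.45, 8.08 and 8.28 on mandibular 1, 2 and 3, against 7.40, 7.23 and 7.85 on tibial 1, 2 and 3. The lowest mandibular level, on mandibular 2, lay 0.23 above the highest tibial level, on tibial 3. Means were 8.27 ± 0.18 in mandibular and 7.49 ± 0.32 in tibial cultures (SD, n = 3 each), a difference of 0.78 (SE 0.19), or 1.71-fold. Of all named genes, 3.13% had mandibular levels that were all above the tibial ones, and 3.31% had them all below. The arrays nearest to each other across the sites were those whose positional genes opposed their labels. With both left out the difference was 1.05 (SE 0.18), and with single arrays left out it ranged from 0.64 to 0.96.

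NOG had the widest spread of the 4 genes. Its level was 9.07, 7.81 and 8.83 on mandibular 1, 2 and 3, against 6.77, 7.29 and 8.05 on tibial 1, 2 and 3. The sites overlapped, because tibial 3 lay 0.23 above mandibular 2. From the lowest to the highest array the range was 2.30, or 4.93-fold, and 3.30% of named genes had a range at least as wide. Means were 8.57 ± 0.67 in mandibular and 7.37 ± 0.64 in tibial cultures (SD, n = 3 each), a difference of 1.20 (SE 0.43), or 2.30-fold. The difference was 1.92 (SE 0.24) without the arrays labelled mandibular 2 and tibial 3, and single omissions gave 0.90 to 1.58. Within its own site, mandibular 2 lay 1.13 below the mean of mandibular 1 and 3, while tibial 3 lay 1.02 above the mean of tibial 1 and 2.

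SMAD6 was nearly level across the mandibular arrays and varied among the tibial ones. It measured 9.55, 9.62 and 9.47 on mandibular 1, 2 and 3, against 8.47, 8.90 and 9.41 on tibial 1, 2 and 3. The sites did not overlap, though the gap between mandibular 3 and tibial 3 was 0.06, less than the mandibular range of 0.16. Means were 9.55 ± 0.08 in mandibular and 8.93 ± 0.47 in tibial cultures (SD, n = 3 each), a difference of 0.62 (SE 0.23), or 1.54-fold. Without the array labelled tibial 1 it was 0.39, without tibial 3 it was 0.86, and without mandibular 2 and tibial 3 together it was 0.82. Unlike NOG, SMAD6 was not lower on mandibular 2 than on the other mandibular arrays: it was 0.12 above their mean.

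FST was lower in the mean of the mandibular arrays. The level was 5.13, 5.16 and 5.06 on mandibular 1, 2 and 3, against 5.65, 5.06 and 5.61 on tibial 1, 2 and 3. The mandibular arrays lay within 0.10 of each other, and tibial 2 lay among them, so the sites overlapped. Means were 5.12 ± 0.05 in mandibular and 5.44 ± 0.33 in tibial cultures (SD, n = 3 each), a difference of -0.32 (SE 0.18), or 1.25-fold higher in tibial cultures. Every FST level was below its array's median, and the deposited values hold no measure of detection, so a level this low may be background. The difference was -0.26 (SE 0.24) without mandibular 2 and tibial 3, -0.51 without tibial 2 and -0.22 without tibial 1, and its sign did not turn in any omission.

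**Figure D1:**
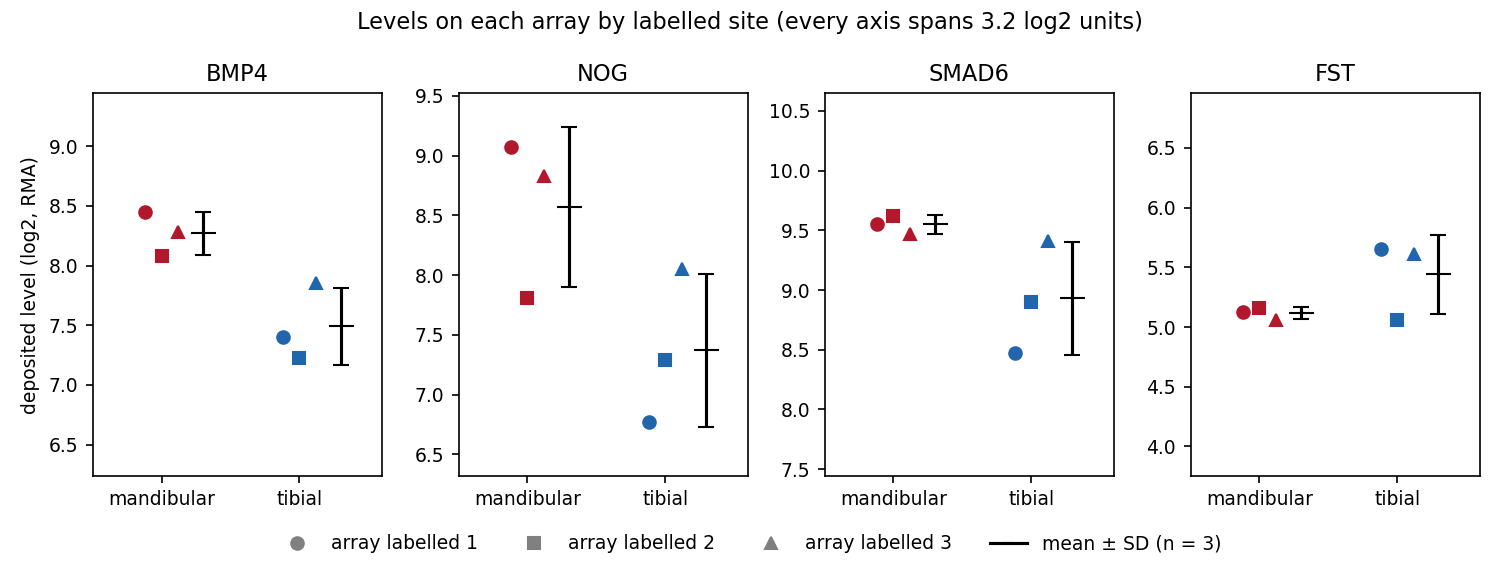
Level of BMP4, NOG, SMAD6 and FST (log2) on each array, mandibular on the left and tibial on the right of each panel, with the mean ± SD of 3 arrays. BMP4 and SMAD6 do not overlap between sites, NOG overlaps through mandibular 2 and tibial 3, and FST overlaps through tibial 2.

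The order of the arrays differed between the genes. For BMP4 it was, from high to low, mandibular 1, 3 and 2, then tibial 3, 1 and 2. For NOG tibial 3 stood above mandibular 2, and tibial 1 was lowest. For SMAD6 the mandibular arrays came first with mandibular 2 on top, followed by tibial 3, 2 and 1. Tibial 3 was thus the highest tibial array for BMP4, NOG and SMAD6, but not for FST, which was highest on tibial 1. Neighbouring arrays in these orders often differed by less than the SD within a site (0.26 for BMP4, 0.65 for NOG, 0.34 for SMAD6 and 0.23 for FST, pooled over the sites).

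**Figure D2:**
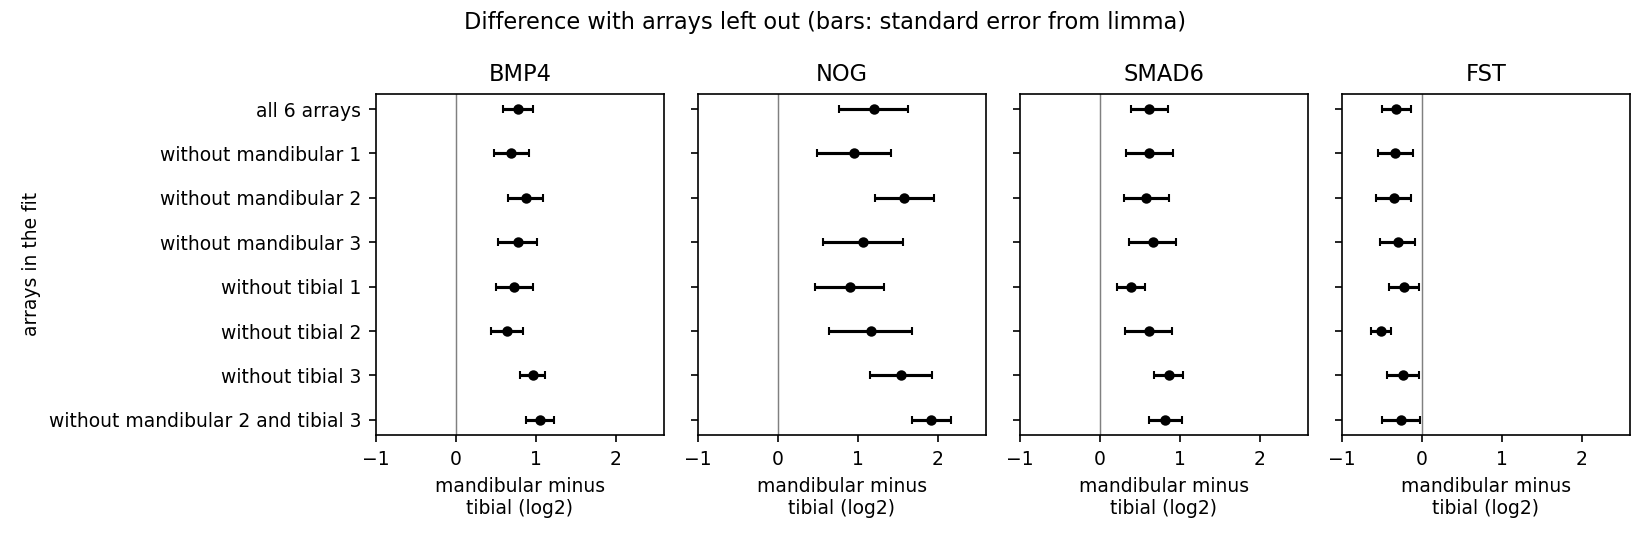
Difference between mandibular and tibial means (log2, with limma's standard error) for all 6 arrays and with arrays left out. BMP4, NOG and SMAD6 stay above 0 and FST below 0 in every fit, and NOG moves most, between 0.90 and 1.92. For BMP4 and SMAD6, whose sites do not overlap, no omission could turn the sign.

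Across the 6 arrays the mean of macrophage markers moved against BMP4, NOG and SMAD6 (Pearson's r = -0.91, -0.96 and -0.90). The mean of cell cycle genes moved with them (0.77, 0.82 and 0.88). For FST the values were 0.34 and -0.33. Other lists were tied about as strongly. SMAD6 had r of -0.95 with both the stromal and the endothelial mean, and NOG had -0.89 with the HOX and 0.86 with the jaw mean. Within the stromal list VCAM1 had by far the widest range over the arrays (5.85), with NT5E next (2.08). VCAM1 measured 4.28, 5.57 and 3.68 on mandibular 1, 2 and 3, against 9.52, 7.55 and 4.10 on tibial 1, 2 and 3. THY1 and COL1A1 ranged by only 0.20 and 0.25, so the stromal r does not describe each stromal marker. The mean of 13 measured macrophage and monocyte markers was 4.95, 6.44 and 5.05 on mandibular 1, 2 and 3, against 8.89, 8.20 and 5.61 on tibial 1, 2 and 3, and all 13 were lower in the mandibular mean. PTPRC, the leukocyte antigen CD45, measured 3.42, 4.86 and 3.71 on the mandibular arrays, against 7.66, 6.96 and 3.91 on the tibial ones. The order of the 6 arrays in NOG was the exact reverse of their order in the macrophage mean. The part of these cells in the levels of BMP4, NOG and SMAD6 was not tested, and in bulk RNA fewer cells of a type and less RNA per cell cannot be told apart. Tibial 3, where the macrophage mean was lower than on mandibular 2 (5.61 against 6.44), had less BMP4 (7.85 against 8.08), less SMAD6 (9.41 against 9.62) and more NOG (8.05 against 7.81) than mandibular 2.

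The mean of 6 measured cell cycle genes was 7.65, 7.72 and 8.64 on mandibular 1, 2 and 3, against 5.91, 6.66 and 8.21 on tibial 1, 2 and 3. It was lowest on tibial 1 and tibial 2, the arrays on which BMP4, NOG and SMAD6 were lowest as well. The highest cell cycle mean was on mandibular 3, which was the top array for none of the 4 genes, and its part was not tested. Endothelial markers, from a cell type in which SMAD6 is abundant, had a mean of 4.97 ± 0.03 in mandibular and 5.15 ± 0.25 in tibial cultures (SD, n = 3 each; 6 genes). Of these, KDR was higher on every mandibular array (3.58 ± 0.16 in mandibular and 3.13 ± 0.32 in tibial cultures) and PECAM1 lower on every one (5.60 ± 0.02 in mandibular and 6.15 ± 0.27 in tibial cultures; SD, n = 3 each). Over all named genes, 3.13% were likewise higher and 3.31% lower on every mandibular array. KDR, TEK and VWF lay below the median of every array, and levels this low may be background. In all, 2 of the 6 had a higher and 4 a lower mandibular mean, and the part of such cells in the SMAD6 level was not tested. The mean of 6 smooth muscle and pericyte genes was 8.92 to 9.51 on mandibular and 8.88 to 9.26 on tibial arrays.

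**Figure D3:**
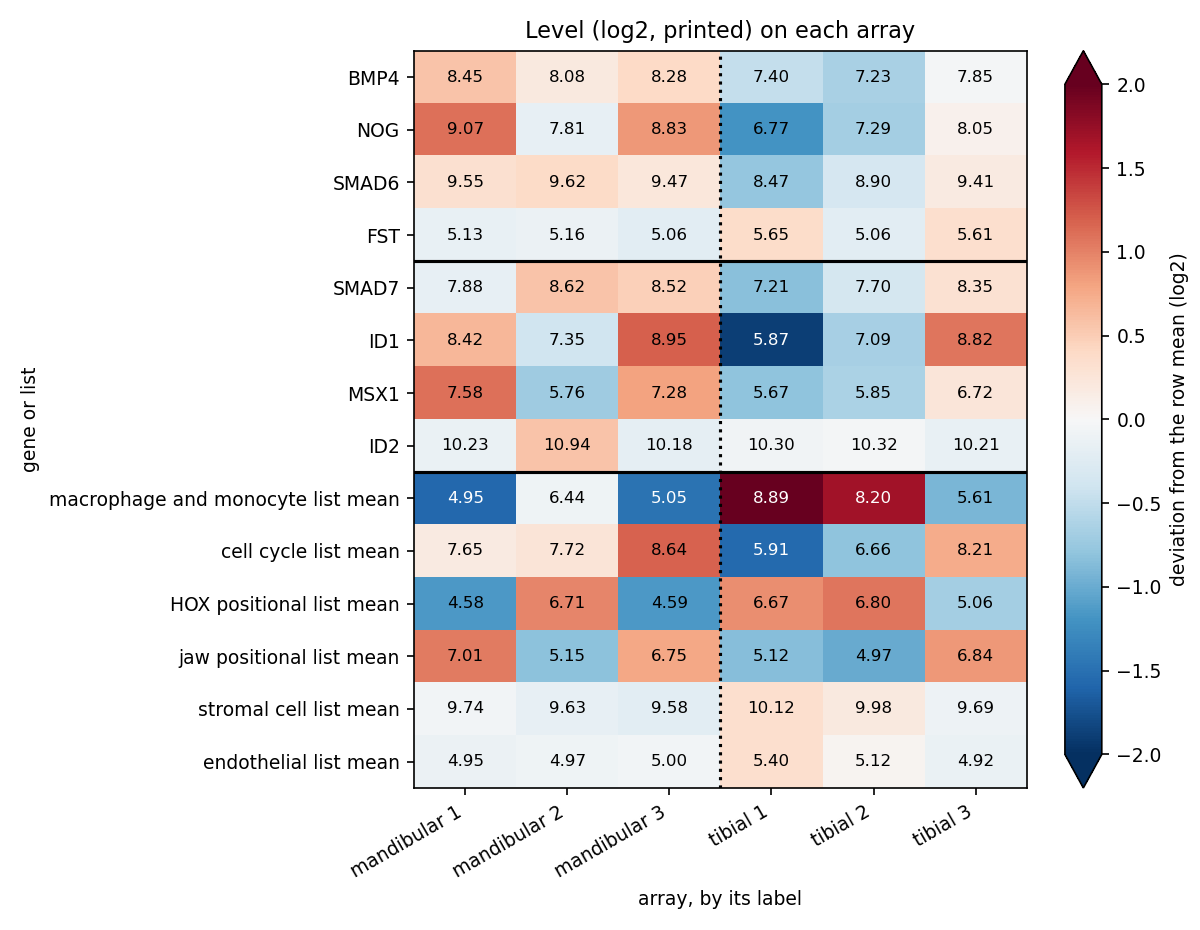
Log2 levels of the 4 genes, of 4 BMP target genes and of 6 marker list means on each array; colour is the deviation from the row's mean. BMP4, NOG and SMAD6 are lowest on tibial 1 and tibial 2, where the macrophage mean is highest (8.89 and 8.20) and the cell cycle mean lowest (5.91 and 6.66).

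The rest of the pathway was read from 8 lists ordered by role, of 106 genes in all, of which 71 had a single-symbol probe set. Of the 67 measured genes other than BMP4, NOG, SMAD6 and FST, 0 were called higher and 0 lower in mandibular cultures by limma at an adjusted p under 0.05, the same share (0%) as over all 27558 probe sets. At an unadjusted p under 0.05 there was 1 of the 67, against 3.03% of all probe sets. Their median difference was 0.03, beside 0.01 over all other named genes, and 44 of the 67 differed by less than 0.2 in either direction. Sites did not overlap for 1 of them, or 1.49%, while 6.44% of named genes showed no overlap. Each of the 67 genes had an adjusted p of 0.9995 in limma.

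**Figure D4:**
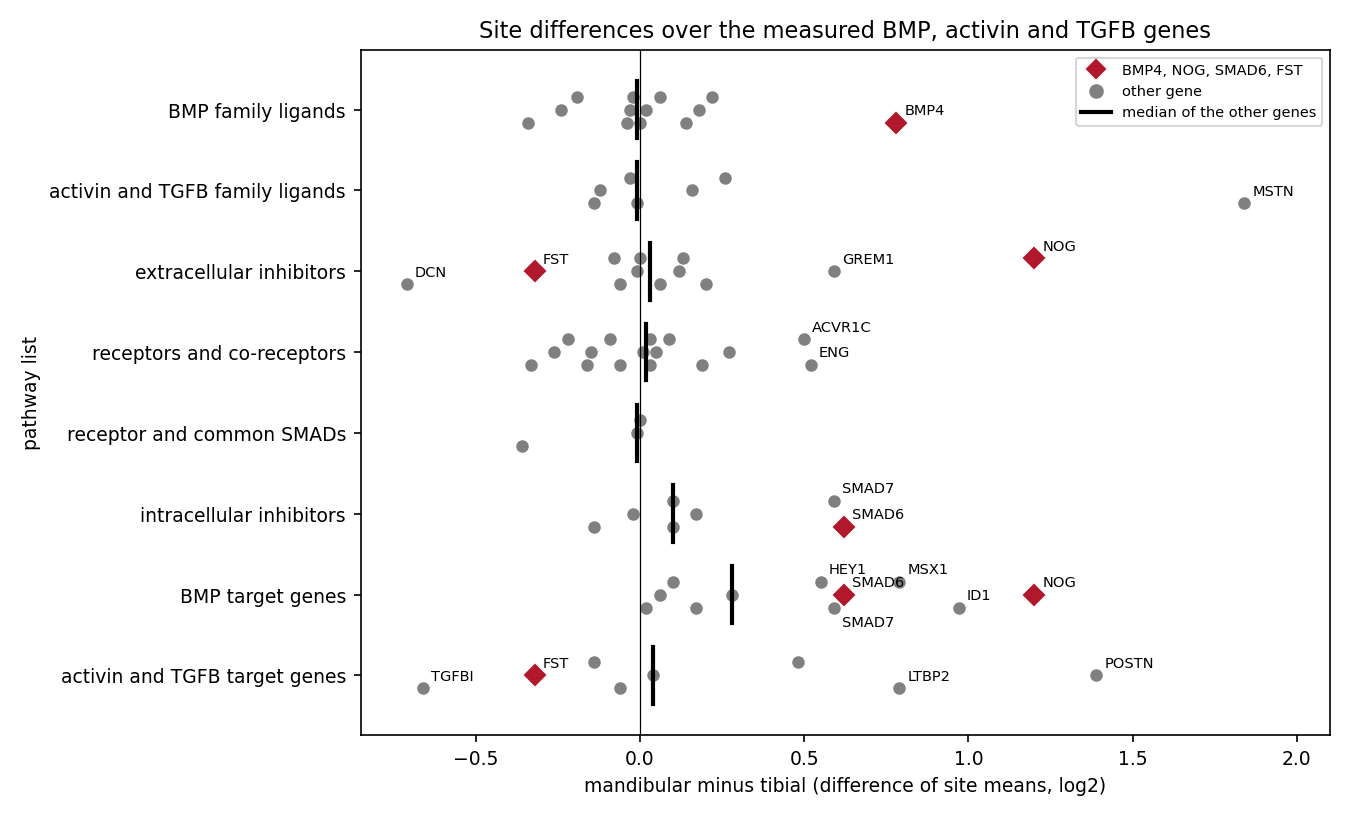
Difference between mandibular and tibial means (log2) for each measured gene of 8 pathway lists, with the list's median over the genes other than BMP4, NOG, SMAD6 and FST. Most genes lie within 0.2 of 0, and a gene in 2 lists is drawn in each.

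Among the BMP family ligands BMP4 had the largest site difference, a rank that follows in part from its selection on these levels. The other 12 measured ligands lay between -0.34 and 0.22. BMP2, which like BMP4 drives osteoblast formation, measured 6.07 ± 0.16 in mandibular and 5.93 ± 0.13 in tibial cultures (SD, n = 3 each). Its levels overlapped, with a difference of 0.14 (SE 0.14). BMP7 differed by -0.04 (SE 0.13), with levels between 4.84 and 5.14. The ligand genes with the next largest differences were BMP5 at -0.34, GDF9, best known from the oocyte, at -0.24, GDF10 at 0.22 and BMP3, an antagonistic family member, at -0.19. BMP5 and BMP3 were low on most arrays, and BMP3 was highest on tibial 3, at 5.56, against 3.56 to 4.51 elsewhere. Without mandibular 2 and tibial 3 the BMP3 difference was 0.61, that of GDF10 was 0.80 and that of GDF9 was -0.05.

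Of 7 measured ligands of the activin and TGFB branch, MSTN, the muscle growth inhibitor myostatin that follistatin binds, differed by 1.84 (SE 0.82). Its level was 4.89, 8.25 and 6.27 on mandibular 1, 2 and 3, against 4.48, 4.03 and 5.37 on tibial 1, 2 and 3. The sites overlapped, and the difference was 0.95 without the array labelled mandibular 2, 2.63 without mandibular 1 and 1.32 without mandibular 2 and tibial 3. TGFB3 spanned 6.67 to 10.05 on mandibular and 6.70 to 9.07 on tibial arrays, with a difference of -0.01 (SE 0.98). It was -0.91 without mandibular 2, 0.78 without mandibular 1 and -1.69 (SE 0.44) without mandibular 2 and tibial 3 together, where limma's adjusted p was 0.241. TGFB2 differed by 0.26, but by -0.44 without mandibular 2 and by -0.69 without mandibular 2 and tibial 3. TGFB1 differed by 0.16, with 0.07 to 0.31 in single omissions. INHBE, an inhibin beta subunit gene, differed by -0.14, and by 0.18 without tibial 2. INHBA, which encodes the subunit of activin A, is not analysed here.

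Extracellular inhibitors other than NOG and FST had a median difference of 0.03 over 10 genes, 5 higher and 5 lower in mandibular cultures. GREM1, a BMP antagonist of marrow stroma and limb bud, was high on all arrays. Its level was 9.81, 11.08 and 8.75 on mandibular 1, 2 and 3, against 8.57, 9.78 and 9.53 on tibial 1, 2 and 3. The sites overlapped and the difference of 0.59 (SE 0.60) became -0.01 without mandibular 2 and 0.10 without mandibular 2 and tibial 3. TWSG1, which binds BMPs together with chordin, ranged only from 9.11 to 9.38. The matrix proteoglycan gene DCN, whose product binds TGFB, differed by -0.71 (SE 0.46), by -0.20 without mandibular 2 and by -0.07 without mandibular 2 and tibial 3. CRIM1, a membrane protein gene that binds BMPs, differed by 0.20, and by -0.01 without those arrays, and VWC2 by 0.13. CHRD and FSTL3 are not analysed here.

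Of 16 measured receptors and co-receptors, 10 differed by less than 0.2 in either direction. The type I receptor gene BMPR1A differed by 0.03 (SE 0.12), BMPR1B by 0.01 (SE 0.22) and ACVR1 by -0.09 (SE 0.14). The type II receptor gene BMPR2 differed by 0.09 (SE 0.20), ACVR2A by -0.22 (SE 0.25) and ACVR2B by -0.15 (SE 0.18). Without mandibular 2 and tibial 3 the differences of BMPR1B and BMPR2 turned to -0.30 and -0.21. BMPR1A spanned 8.11 to 8.44 on mandibular arrays and 8.24 to 8.28 on tibial arrays. ENG, the co-receptor endoglin, differed by 0.52 (SE 0.23), with 10.57, 10.03 and 10.54 on mandibular arrays against 10.19, 9.47 and 9.91 on tibial arrays. Without tibial 2 the ENG difference was 0.33, and without mandibular 2 and tibial 3 it was 0.73. TGFBR3, the co-receptor betaglycan, differed by -0.33, TGFBR1 by 0.27 and RGMA, a BMP co-receptor gene, by -0.26, which was -0.89 without mandibular 2 and tibial 3. The 1 pathway gene without overlap was ACVR1C, a type I receptor gene, at 3.30, 3.01 and 3.09 on mandibular arrays against 2.51, 2.61 and 2.76 on tibial arrays, a difference of 0.50 (SE 0.13). Levels this low may be background.

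Of the signal-carrying SMADs 3 were measured. SMAD4, shared by the BMP and activin branches, measured 9.85 to 10.09 on mandibular and 9.96 to 9.99 on tibial arrays. SMAD1 measured 7.65, 8.11 and 7.75 on mandibular arrays, against 7.69, 8.21 and 7.62 on tibial arrays. SMAD9 measured 5.73, 6.02 and 5.51 on mandibular arrays, against 5.78, 6.24 and 6.34 on tibial arrays. Its difference was -0.36 (SE 0.20), and -0.54 without tibial 1. SMAD5 is not analysed here.

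Of the intracellular inhibitors, SMAD7, which blocks both branches, stood closest to SMAD6 in the size of its difference. SMAD7 measured 7.88, 8.62 and 8.52 on mandibular 1, 2 and 3, against 7.21, 7.70 and 8.35 on tibial 1, 2 and 3. The sites overlapped through mandibular 1 and tibial 3, and the difference was 0.59 (SE 0.33), ranging from 0.32 to 0.89 in single omissions and at 0.75 without mandibular 2 and tibial 3. BAMBI, a decoy receptor gene, differed by 0.10 (SE 0.23), FKBP1A, whose product holds type I receptors inactive, by 0.17 and PMEPA1 by -0.14, which was -0.44 without mandibular 2 and tibial 3.

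All 9 measured BMP target genes other than SMAD6 and NOG had a higher mandibular mean, with a median of 0.28, and none passed the test. Over the other named genes, 5584 of 10877 had a higher mandibular mean. The median of the 9 targets was 0.45 without tibial 2, 0.16 without tibial 3 and 0.11 without mandibular 2 and tibial 3 together. The differences ran from 0.02 to 0.97, and the count was 7 of 9 without mandibular 1, without tibial 2, or without mandibular 2 and tibial 3 together. ID1, the most direct readout gene of BMP signalling in many cells, measured 8.42, 7.35 and 8.95 on mandibular 1, 2 and 3, against 5.87, 7.09 and 8.82 on tibial 1, 2 and 3. Its difference was 0.97 (SE 0.76), 0.28 without tibial 1, 1.75 without tibial 3 and 2.20 without mandibular 2 and tibial 3 together (adjusted p = 0.135 in limma). MSX1, a homeobox gene of the jaw that BMP4 induces, measured 7.58, 5.76 and 7.28 on mandibular 1, 2 and 3, against 5.67, 5.85 and 6.72 on tibial 1, 2 and 3.

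On mandibular 2 both ID1 and MSX1 were below tibial 3, as NOG was. MSX1 differed by 0.79 (SE 0.51) with all arrays, by 0.44 to 1.35 in single omissions, and by 1.67 without mandibular 2 and tibial 3. Its own levels were part of the jaw mean that singled out those arrays, so the last value follows in part from that choice and is given without a test. HEY1, shared with Notch signalling, differed by 0.55 (SE 0.37), by 0.17 without mandibular 2 and by 0.09 without mandibular 2 and tibial 3. ID2 lay between 10.18 and 10.94 on mandibular and between 10.21 and 10.32 on tibial arrays, with a difference of 0.17. Without mandibular 2 and tibial 3 the ID2 difference was -0.11. ID3 and MSX2 are not analysed here. The targets therefore did not share 1 order over the arrays: SMAD6, SMAD7, HEY1 and ID2 were high on mandibular 2, and NOG, ID1 and MSX1 were not.

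Targets of the activin and TGFB branch had a median difference of 0.04 over 7 genes other than FST. POSTN, the matrix protein periostin, spanned 5.60 to 11.89 on mandibular and 4.50 to 11.40 on tibial arrays. It was high on mandibular 1, mandibular 3 and tibial 3, and its difference of 1.39 (SE 2.12) became -0.04 without mandibular 1 and -0.18 without tibial 2, but 3.10 without mandibular 2 and 3.27 without tibial 3. Without mandibular 2 and tibial 3 together it was 4.99 (SE 1.03; adjusted p = 0.153 in limma). TGFBI, a matrix protein gene induced by TGFB, differed by -0.66 (SE 0.96) and by -1.55 to -0.08 in single omissions. Without mandibular 2 and tibial 3 it differed by -2.36 (adjusted p = 0.0457 in limma). TGFBI was high on mandibular 2, tibial 1 and tibial 2 (9.80, 9.48 and 9.97), where the HOX mean was high as well. That p-value is thus not independent of the choice of arrays. LTBP2 differed by 0.79, by 0.13 without tibial 2 and by 1.24 without mandibular 2 and tibial 3. CTGF, the connective tissue growth factor gene, differed by 0.48 (SE 0.28), with levels of at least 11.34 on every array.

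The genes whose levels over the arrays were most like each of the 4 were sought among named genes whose highest and lowest arrays lay 1 log2 unit or more apart, 1623 for BMP4, NOG and SMAD6 and 1624 for FST. Pearson's r over the 6 arrays is given as a description. The arrays share donors and a common normalization, and with 6 points and so many genes high values are found readily. For BMP4 the 5 most alike were AKR1CL1, an aldo-keto reductase gene (r = 0.985), the irritant-sensing channel gene TRPA1 (0.967), the semaphorin receptor gene PLXNA2 (0.962), the tenascin gene TNN (0.952) and the transcription factor gene ETV1 (0.952). AKR1CL1 measured 9.01, 8.56 and 8.56 on mandibular arrays, against 6.99, 6.52 and 8.12 on tibial arrays. Most opposite to BMP4 were SUCLA2, a subunit gene of mitochondrial succinyl-CoA ligase (r = -0.992), the mTOR inhibitor gene DEPTOR (-0.977) and F13A1, a coagulation factor gene that macrophages also express (-0.959).

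For NOG the most alike were FAM171B (r = 0.990), TNN (0.983), the chromatin protein gene PSIP1 (0.973), the neurabin gene PPP1R9A (0.967) and TEX15 (0.967). TNN was the only gene among the 5 most alike for both BMP4 and NOG. It measured 4.09, 3.51 and 3.94 on mandibular arrays against 2.99, 3.05 and 3.66 on tibial arrays, which is low. PPP1R9A (at most 4.85) and TEX15 (at most 4.50) were low as well, and such levels may be background. Most opposite to NOG were MYLIP (r = -0.989), the protease gene MMP9 (-0.984) and the heparanase gene HPSE (-0.981). MMP9, which osteoclasts and macrophages secrete, measured 7.32, 11.13 and 7.61 on mandibular 1, 2 and 3, against 12.94, 12.29 and 9.47 on tibial 1, 2 and 3.

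For SMAD6 the most alike were the NADPH oxidase gene NOX4 (r = 0.996), the cartilage matrix gene CHAD (0.993), the probe set annotated MIR27B (0.975), NIPAL4 (0.959) and PAIP2B (0.949). CHAD measured 8.76, 8.67 and 8.55 on mandibular arrays, against 6.52, 7.49 and 8.27 on tibial arrays, without overlap. Most opposite were LY9, a lymphocyte surface receptor (r = -0.992), VAV3, an exchange factor (-0.987), and S100A12, a neutrophil protein (-0.985). On the mandibular arrays and tibial 3, LY9 lay between 3.97 and 4.09, VAV3 between 3.44 and 4.07 and S100A12 between 3.34 and 3.74. Such levels may be background, and these genes were higher only on tibial 1 and tibial 2. MIR27B, at most 5.15, was below the median of every array as well. For FST the highest r was lower, at 0.855 for the histamine receptor gene HRH4. The next were IFN-ALPHA-15 (0.818), the laminin gene LAMA2 (0.813), PHEX (0.801) and TLR8 (0.799). The most opposite were MIR29A (r = -0.886), TREM1 (-0.879) and WDR17 (-0.855). Apart from LAMA2, all genes named here for FST lay below the median of every array. Like FST, they may be background.

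**Figure D5:**
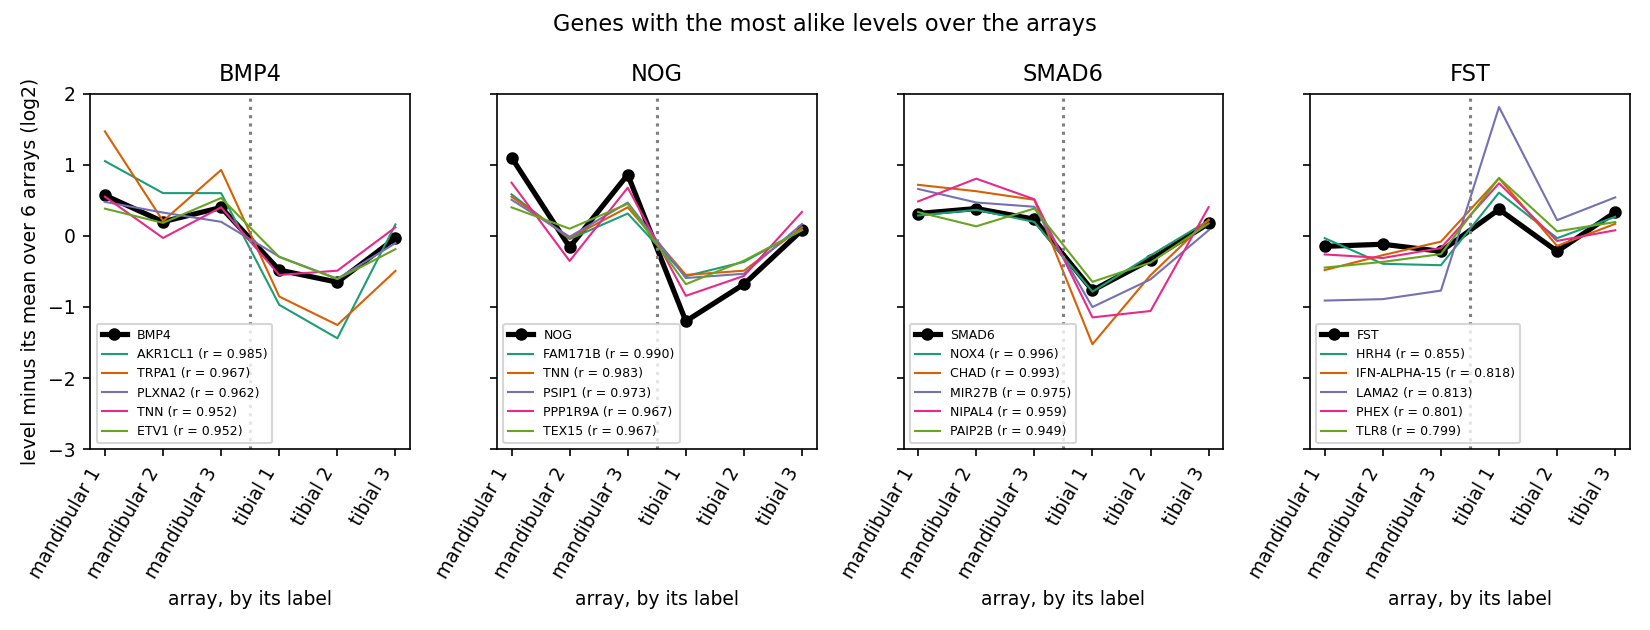
Level minus its own mean over the 6 arrays (log2) for each of the 4 genes (black) and the 5 genes with the highest Pearson r to it; lines join arrays for reading only. The SMAD6 panel shows little change among mandibular arrays and the lowest level on tibial 1, and the FST panel has the loosest match, with r of 0.855 at most.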

How the data were processed

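RNA of 6 cultures was measured on Affymetrix porcine arrays. The values are log2 levels that the authors deposited for 27558 probe sets, made with Affymetrix Expression Console, Transcriptome Analysis Console 3.0 and RMA, per the submitters' processing notes. RMA equalises arrays, which makes levels relative and would hide a change common to every gene. Neither settings nor genome build are stated in the sources used here, so coordinates are left out. Symbols came from GEO's platform annotation: 13157 probe sets had 1, 523 several and 13878 none, and 7 were updated by Entrez number. The probe set with the highest mean stood for each of 10881 genes. Differences, mandibular minus tibial, were fitted with limma 3.58.1 in R 4.3.3 over all probe sets, two-sided, with Benjamini-Hochberg adjustment and a threshold of 0.05. The fit was tested on simulated data with independent noise, without shared donors or arrays that oppose their labels. That test does not show how many true differences the fit would miss in these arrays. With 3 arrays against 3, an exact permutation test cannot give a p below 0.1, and none was run. The 4 genes, the 8 pathway lists and the 7 marker lists were chosen with earlier results of these data known. In each pathway list, genes named were those without overlap, up to 4 more by largest difference, and a fixed set. A listed gene without a single-symbol probe set is not analysed here.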

Additional observations from a re-analysis of the deposited data

How the results depend on the processing

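BMP4, NOG and SMAD6 stayed higher and FST lower in mandibular cultures with array medians subtracted, with array weights and with any array left out. Averaging all probe sets of a gene could not change these differences, since each of these genes had a single probe set. The filter on low levels removed FST. Leaving out 1 array gave 0.64 to 0.96 for BMP4, 0.90 to 1.58 for NOG, 0.39 to 0.86 for SMAD6 and -0.51 to -0.22 for FST. Leaving out the arrays labelled mandibular 2 and tibial 3, a choice made after the data were seen, moved BMP4 to 1.05 and NOG to 1.92. It gave 195 calls over all probe sets and 2 among the 67 other pathway genes, MSX1 and TGFBI, with a pathway median of -0.04. The MSX1 call is circular, since its levels helped to single out those arrays. TGFBI was high on the same arrays as the HOX mean, so its call is not independent of that choice either. For the other changes the cause was not tested. Single omissions gave 0 to 2 calls over all probe sets (1 without tibial 1, 2 without tibial 3), 0 among the pathway genes, and a pathway median of -0.03 to 0.09, so its sign depends on single arrays. Every other alternative gave 0 calls. The replicate block also gave 0 calls. It cannot move a difference of site means, since both sites hold the same replicate numbers. The differences of BMP4, NOG, SMAD6 and FST therefore stayed at 0.78, 1.20, 0.62 and -0.32. Deviations from the site mean correlated at -0.033, 0.212 and 0.473 for same-numbered arrays, and at -0.486 to 0.361 for differently numbered ones. With so few arrays these values cannot settle a pairing. The numbers were not taken as pairs because they are not stated to mark a pig. Low levels, as for FST, cannot be separated from background.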
